A study of Mus musculus with 4 samples.

Results

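The 10 genes described here encode members of the AP-1 group of transcription factors in the mouse: the FOS family (Fos, Fosb, Fosl1 and Fosl2), the JUN family (Jun, Junb and Jund), the BATF proteins (Batf and Batf3) and Atf3. They were taken by name from 20923 protein-coding genes. A SMAD4 peak was counted for a gene when its summit lay in the gene body or within 50 kb of one of the gene's curated RefSeq transcription start sites (TSS). Peaks came from alveolar macrophages (AMs), the resident phagocytes of the lung airspaces, which were washed out of the lungs of wild-type C57BL/6J mice 9 weeks old and sorted by flow cytometry. SMAD4 was precipitated with a combination of 2 antibodies by HT-ChIPmentation, in which Tn5 transposase inserts the sequencing adapters into chromatin still held on the immunoprecipitation beads. The series holds 2 SMAD4 libraries and 2 input libraries, and the peak lists of the SMAD4 libraries are the data. There was no second condition, and how many mice went into a library is not given in the sources used here. The pair of lists therefore shows only whether a peak was called again, and the spread between them may be technical.

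AP-1 proteins bind DNA as dimers through a basic leucine zipper. FOS proteins do not form stable dimers with each other and pair with JUN proteins, which can also pair among themselves. BATF and BATF3 pair with JUN proteins and, together with IRF4 or IRF8, bind composite sites in immune cells, and ATF3 is a stress-induced member of the ATF/CREB group that often represses transcription. Many of these genes are immediate early genes, switched on within minutes by growth factors, cytokines and bacterial products. SMAD4 joins the SMAD proteins that TGFβ receptors phosphorylate and enters the nucleus with them, and SMAD complexes are known to work with AP-1 dimers at many target genes. The question put to the lists was where SMAD4 was bound around the genes that encode the AP-1 proteins themselves.

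SMAD4 peaks called in both libraries lay around all 4 FOS family genes, around Batf and Batf3 and around Atf3, and around none of the 3 JUN family genes. By the same rule, 39.1% of the 20923 protein-coding genes had such peaks in reach, so having none was the more common state. Peaks of one list that overlapped a peak of the other by 1 bp or more were merged into a shared region, and 24 such regions were in reach of the 10 genes. Fos and Fosb had 5 each, Batf3 had 4, Fosl2, Batf and Atf3 had 3 each and Fosl1 had 1. The highest of them stood 27.1 kb upstream of Batf, with a fold enrichment of 20.5 in replicate 1 and 41.1 in replicate 2. Fold enrichment is the number of DNA fragments stacked at the summit plus 1, over the control level plus 1.

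The windows below carry the 5 highest shared regions, ranked by the smaller of their folds. In replicate 2 alone the order differed. Regions of Fos (folds 23.5 and 21.3) and Atf3 (19.9) were above those shown for Fosb (15.8) and Fosl1 (16.7). Each window holds 100 bases either side of the mean summit, on the plus strand of mm10 from 5′ to 3′. The letters were read from the RefSeq GRCm38 sequence, and no window overlaps an exon. Capitals mark matches, on either strand, to the strings TTGCNNAA (bound by C/EBP proteins), TGTGGT (RUNX), CACGTG (E-box), GTCTGG (SMAD) and TGATGCAA, a joined C/EBP and ATF sequence. The last string was added after the letters of the windows had been seen.
Batf, 27.1 kb upstream, chr12:85659487-85659687: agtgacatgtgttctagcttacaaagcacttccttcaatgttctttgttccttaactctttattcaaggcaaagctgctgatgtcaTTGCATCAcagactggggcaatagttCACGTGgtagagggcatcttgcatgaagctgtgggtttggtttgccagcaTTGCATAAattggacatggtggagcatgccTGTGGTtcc
Fosl2, intron, 2.17 kb downstream of the TSS, chr5:32138538-32138738: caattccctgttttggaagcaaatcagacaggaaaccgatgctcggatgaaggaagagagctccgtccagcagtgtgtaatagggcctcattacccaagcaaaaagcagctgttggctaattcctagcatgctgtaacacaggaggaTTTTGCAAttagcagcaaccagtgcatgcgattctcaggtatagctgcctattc
Batf3, 25.4 kb downstream of the TSS, chr1:191123740-191123940: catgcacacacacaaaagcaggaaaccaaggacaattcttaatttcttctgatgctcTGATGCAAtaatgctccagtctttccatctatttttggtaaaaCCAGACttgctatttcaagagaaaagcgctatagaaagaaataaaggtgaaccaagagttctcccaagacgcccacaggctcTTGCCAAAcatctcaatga
Fosb, 6.37 kb upstream, chr7:19316317-19316517: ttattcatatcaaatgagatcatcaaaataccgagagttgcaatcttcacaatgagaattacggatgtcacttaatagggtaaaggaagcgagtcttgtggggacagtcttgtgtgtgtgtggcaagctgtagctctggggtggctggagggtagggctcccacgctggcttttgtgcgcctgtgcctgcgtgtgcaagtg
Fosl1, 2.99 kb upstream, chr19:5444606-5444806: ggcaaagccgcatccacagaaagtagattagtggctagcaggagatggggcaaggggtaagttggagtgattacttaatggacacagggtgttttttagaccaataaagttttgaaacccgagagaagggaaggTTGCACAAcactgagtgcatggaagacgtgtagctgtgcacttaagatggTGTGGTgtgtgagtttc

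Another 3 sequences are shown because they hold the remaining matches to TGATGCAA near these genes, and were chosen after that search. The windows upstream of Atf3 and downstream of Batf3 are drawn in the same way. The Atf3 promoter is given as the 250 bases before the TSS on the minus strand, the strand of the gene, from the RefSeq promoter table for GRCm38.
Atf3, 18.1 kb upstream, chr1:191201358-191201558: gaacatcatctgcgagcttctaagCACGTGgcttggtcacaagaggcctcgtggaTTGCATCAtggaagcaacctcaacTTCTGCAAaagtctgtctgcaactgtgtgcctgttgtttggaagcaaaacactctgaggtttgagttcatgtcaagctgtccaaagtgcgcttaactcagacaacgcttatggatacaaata
Batf3, 24.6 kb downstream of the TSS, chr1:191122919-191123119: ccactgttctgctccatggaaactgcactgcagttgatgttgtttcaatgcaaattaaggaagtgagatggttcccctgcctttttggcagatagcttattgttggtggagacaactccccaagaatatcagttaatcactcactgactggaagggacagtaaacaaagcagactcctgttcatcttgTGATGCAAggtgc
Atf3 promoter, chr1:191183334-191183583: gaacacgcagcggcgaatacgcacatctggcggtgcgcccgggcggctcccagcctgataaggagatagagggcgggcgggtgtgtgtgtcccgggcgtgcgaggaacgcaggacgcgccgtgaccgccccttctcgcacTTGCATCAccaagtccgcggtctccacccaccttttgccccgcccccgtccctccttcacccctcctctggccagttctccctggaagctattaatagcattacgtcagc

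The lists held 16369 peaks in replicate 1 and 19015 in replicate 2, and 10964 shared regions. Median fold was 5.52 in replicate 1 and 6.77 in replicate 2, at medians of 17.0 and 14.0 fragments under the summit. The control level at most summits was 2.08 fragments in replicate 1 and 1.22 in replicate 2, so the same fold rests on more fragments in replicate 1. All 6 loci looked up as AM loci had a shared region in reach, among them Pparg with 11 and Chil3 with a region at folds of 45.8 and 65.4. Of the loci of other cell types, Sftpc and Cd3e had none and 1 region lay upstream of Alb. A peak list holds no RNA, so it does not show which AP-1 proteins these cells made.

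Taken gene by gene, 7 of the 10 AP-1 factor genes had at least 1 shared region in reach, against 39.1% of all protein-coding genes, and against 35.3% of those no longer than Batf, the longest member at 22368 bp. At least 3 shared regions were in reach of 6 of the 10, against 10.3% of all protein-coding genes and 8.14% of the short ones. That count was 3 of the 10, against 7.17% of protein-coding genes, when peaks needed a fold of 5 or more, a setting chosen for this count after the data had been seen. The genes were proposed with results of these lists known, so these shares are a description and no test was made on them. In the single lists, 8 of the 10 genes had a peak of replicate 1 in reach, where the background was 46.6%, and all 10 had a peak of replicate 2, where it was 53.4%. A shared region in the gene's own promoter was present at 2 of the 10, Fosb and Atf3, against 2.91% of protein-coding genes.

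**Figure D1:**
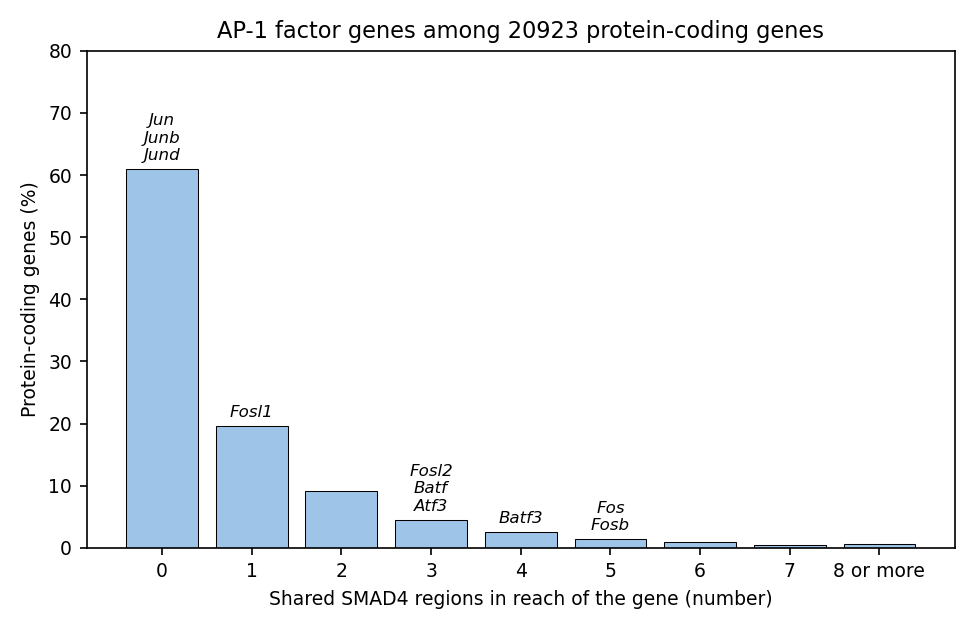
Bars give the percentage of 20923 protein-coding genes (y axis) with each number of shared SMAD4 regions in reach (x axis), and gene names stand above the bar they belong to. Jun, Junb and Jund stood with the genes at 0, and Fos and Fosb with 5 regions were in the upper 3.33% of genes.

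In the FOS family, 20 peaks of replicate 1 and 20 of replicate 2 were in reach. Those with a partner in the other list made 14 shared regions. Fos, the founding member, is a gene of 3385 bp at chr12:85473890-85477274 on the plus strand with no other curated TSS in its reach. Its 5 shared regions were all intergenic and all closer to Fos than to any other gene. A region 5.01 kb upstream, chr12:85468555-85469192, had folds of 13.1 and 21.3, on 43 fragments in replicate 1 and 50 in replicate 2. Downstream, a pair of regions stood 15.5 and 16.7 kb from the TSS. The first, chr12:85488977-85489766, had folds of 11.0 and 23.5 and the second, chr12:85490416-85490838, had 10.1 and 13.5. The other two, 17.0 and 18.6 kb upstream, were weak, with folds of 4.55 and 4.87 in replicate 1 and 4.96 and 6.32 in replicate 2. No shared region and no peak of a single list fell in the Fos promoter or gene body.

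Fosb, which encodes a close relative of FOS, lies on chromosome 7 (19302696 to 19310045, minus strand), in a stretch where 5 other genes have a TSS in reach. Its strongest shared region was 6.37 kb upstream at chr7:19316132-19316945, with folds of 14.3 and 15.8 on 43 and 34 fragments. The Fosb promoter held a shared region at the TSS, chr7:19309924-19310169, at the low folds of 4.55 and 4.96, on 13 and 10 fragments. Another region 10.1 kb upstream had folds of 4.87 and 8.57. The last pair, 28.1 and 28.7 kb upstream, had the TSS of Ercc1, a DNA repair gene, as the closest. These were the only member regions at which replicate 1 had the higher fold, 11.0 against 7.22 and 5.85 against 4.96.

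Fosl1, which encodes FRA-1, had a single peak in each list, and they overlapped at chr19:5444410-5444945, 2.99 kb upstream of the gene. Folds were 13.3 and 16.7, on 40 and 36 fragments, so this lone region ranked 1283 of the 10964 shared regions. As many as 10 other genes have a TSS in reach of Fosl1, and its own TSS was still the closest to the region. Fosl2, which encodes FRA-2, carried its highest region inside the first part of the gene. That intronic region, chr5:32138281-32140124, was 1844 bp wide, the widest of the 24, and took in 2 peaks of replicate 1 and 1 of replicate 2. Its folds were 16.6 and 30.7, on 50 and 67 fragments. Of the other Fosl2 regions, 1 stood 13.9 kb upstream with folds of 7.47 and 14.4, and 1 lay 24.4 kb downstream of the TSS with 5.85 and 5.87, closest to Gm36732.

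**Figure D2:**
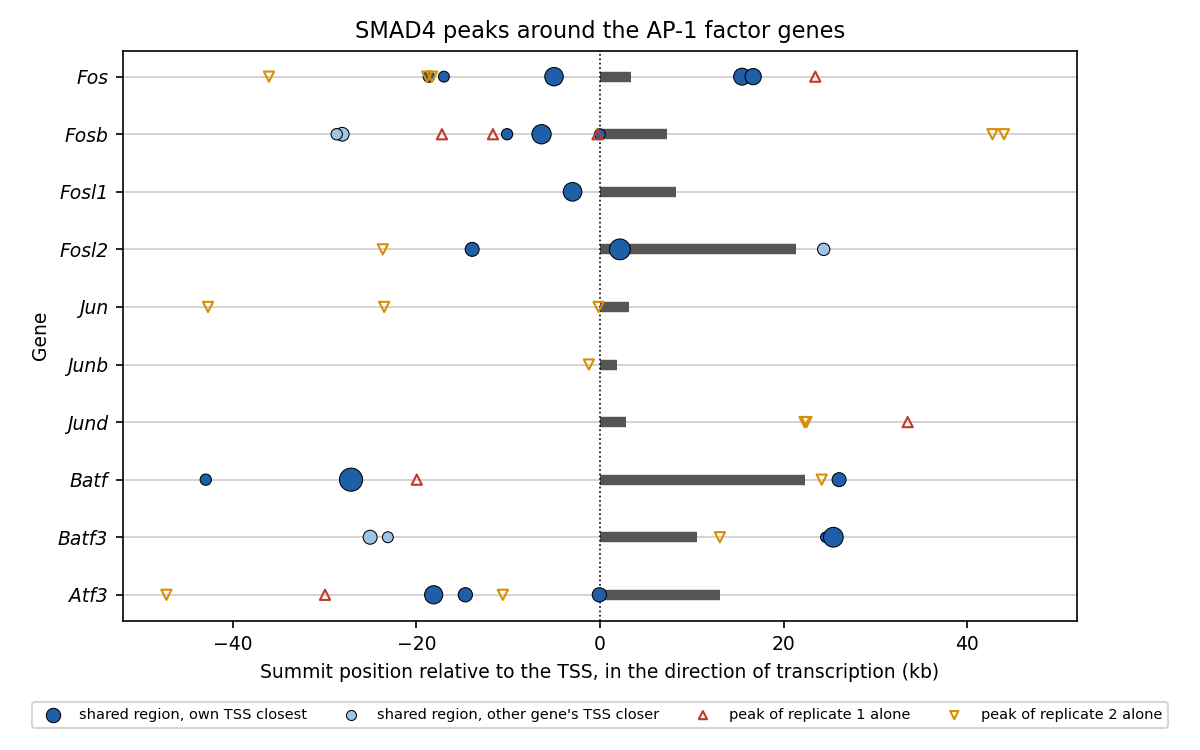
Each line is a gene aligned at its first TSS and drawn in the direction of transcription, with the summit distance in kb on the x axis and the gene body as a dark bar. Filled circles are shared regions, larger where the smaller fold is higher and pale where another gene's TSS is closer, and open triangles are peaks of a single replicate. Jun, Junb and Jund carry triangles alone, while most circles of the other genes lie within 30 kb.

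The JUN family gave 1 peak in replicate 1 and 6 in replicate 2, and no overlap between them. Of 20923 protein-coding genes, 12742 likewise had no shared region in reach. Jun, a gene of a single exon at chr4:95049036-95052222 on the minus strand, had no peak of replicate 1. Its 3 peaks of replicate 2 had folds of 4.51 in the promoter, at chr4:95052266-95052435, 4.51 at 23.5 kb upstream and 5.87 at 42.7 kb upstream, on 9, 9 and 12 fragments. The closest shared region was 157399 bp from the TSS, and no other gene has a curated TSS in reach of Jun. Junb, on chromosome 8, had 1 peak, in replicate 2, 1.21 kb upstream of its TSS at chr8:84979713-84980072, with a fold of 8.57 on 18 fragments. That was the highest fold among all 23 unshared peaks near the AP-1 factor genes. Jund, also on chromosome 8, had 1 peak of replicate 1 (fold 3.25, 9 fragments) and 2 of replicate 2 (7.67 and 4.96, 16 and 10 fragments), all closer to another gene's TSS. Absence from a list means that no peak passed the threshold at this depth, and does not show that SMAD4 was not bound. The lowest summit that reached a list held 9 fragments in replicate 1 and 7 in replicate 2.

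Batf and Batf3 encode small AP-1 proteins without a transactivation domain. Batf lies on chromosome 12 (85686720 to 85709087, plus strand), downstream of Fos and with no other curated TSS in reach. Its region 27.1 kb upstream, chr12:85659329-85660178, had 62 fragments under the summit in replicate 1 (95% exact Poisson interval 47.5 to 79.5, counting error only) and 90 in replicate 2 (72.4 to 111). It ranked 389 of 10964 shared regions by the smaller fold. The other Batf regions were 26.1 kb downstream of the TSS, past the end of the gene, with folds of 7.47 and 14.9, and 43.0 kb upstream with 4.87 and 11.3. No shared region lay inside Batf.

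Batf3 and Atf3 are neighbours on chromosome 1, with Batf3 at 191098414 to 191108943 on the plus strand and Atf3 at 191170296 to 191183333 on the minus strand. Batf3, required for the development of cross-presenting dendritic cells, had 4 shared regions. The highest, chr1:191123474-191124164, lay 25.4 kb downstream of its TSS, in the interval between the genes, with folds of 14.9 and 20.3 on 45 and 44 fragments. A weaker region next to it, 24.6 kb from the TSS, had 4.22 and 8.12. Upstream, regions at chr1:191073145-191073566 and chr1:191075188-191075447 lay in introns of Nsl1, whose TSS was closer, with folds of 7.47 and 9.02 and of 4.55 and 6.77.

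Atf3 had its strongest region 18.1 kb upstream at chr1:191201128-191201735, with folds of 12.7 and 19.9 on 38 and 43 fragments. A second upstream region at 14.7 kb had 7.80 and 8.12. The third covered the Atf3 promoter, chr1:191183208-191183631, with folds of 7.80 and 14.4 on 23 and 31 fragments. Of the 2 AP-1 factor promoters with a shared region, the Atf3 promoter thus had the higher folds in both libraries, and its fragment counts of 23 and 31 were above the 13 and 10 at Fosb. All 3 Atf3 regions were closer to Atf3 than to any other gene.

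Among themselves the 24 regions ran from 4.22 to 20.5 in replicate 1 (median 7.64) and from 4.96 to 41.1 in replicate 2 (median 12.4). Across all shared regions the medians were 6.82 and 9.48. By the smaller fold, 15 of the 24 were above the median of all shared regions and 4 were above the ninetieth percentile, those of Batf, Fosl2, Batf3 and Fosb whose windows open the sequences above. Replicate 2 had the higher fold at 22 of the 24 regions (91.7%), against 87.2% of all shared regions, so the direction is that of the lists as a whole. Ranks were alike in both libraries, with a Spearman's rho of 0.83 over the 24 regions and 0.78 over all. Those values describe sites that share libraries and control levels and carry no p-value.

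**Figure D3:**
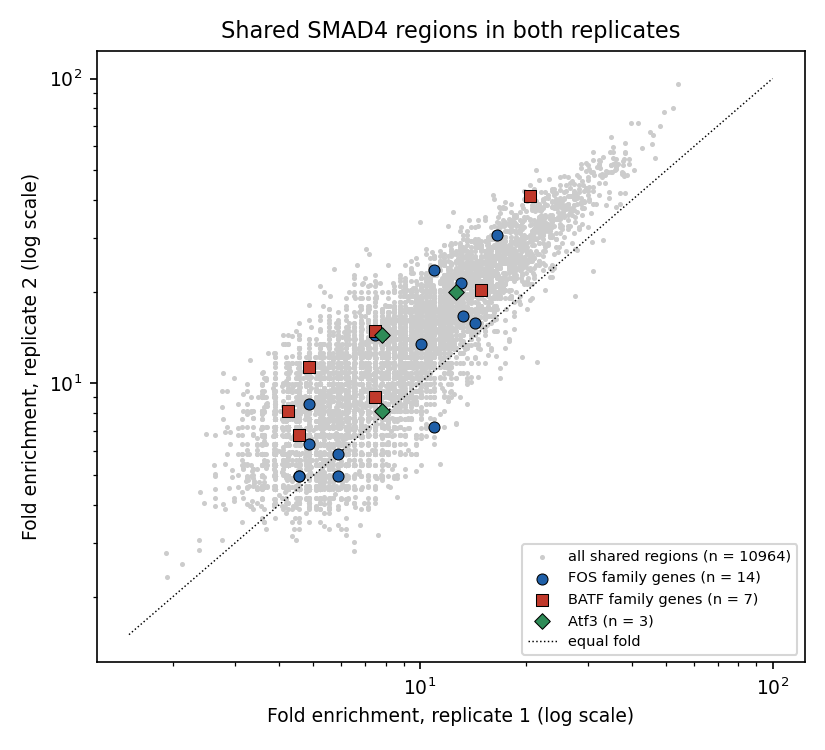
Fold enrichment of each shared region in replicate 1 (x axis) and replicate 2 (y axis), both on log scales, with all 10964 shared regions in grey and the dotted line marking equal folds. The 24 regions near the AP-1 factor genes run from the low end of the cloud to the Batf region at 20.5 and 41.1, and 22 lie above the line.

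The regions of these genes were mostly intergenic. Such sequence held 19 of the 24 (79.2%), against 40.5% of all shared regions, and introns held 3 (12.5%) against 49.3%. These genes are short, and reach was counted around them, so the shares were not compared by a test. Promoters held 2 (8.33%) against 6.42%. Only the Fosl2 intronic region had its summit inside the body of the gene it was counted for. Upstream of the TSS stood 17 regions and downstream 7. Within 1 kb of a TSS were 2 regions, within 10 kb 6, within 20 kb 14 and within 30 kb 23. The reach of 50 kb was not crowded at its edge, since the farthest region inside was 42962 bp from its TSS and the closest outside was 56476 bp from that of Atf3, with folds of 5.52 and 7.67. Regions came in close company at 10 of the 24 (41.7%), with another shared summit within 2 kb, against 16.3% of all. The closest curated TSS belonged to one of the 10 genes at 19 regions and to another gene at 5.

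Peaks without a partner had folds of 5.52 or less in replicate 1, where the list median was 5.52. In replicate 2, such peaks of Junb (fold 8.57), Jund (7.67) and Batf3 (7.67) were above the list median of 6.77. Of 33 peaks of replicate 1 in reach, 26 (78.8%) overlapped a peak of replicate 2, against 69.4% of the whole list, and of 40 peaks of replicate 2, 24 (60.0%) had a partner, against 59.2%. The 7 unshared peaks of replicate 1 had folds of 3.25 to 5.52, with a median of 14.0 fragments, and the 16 of replicate 2 had folds of 4.51 to 8.57, with a median of 12.0. In each list 1 of them was in a promoter, that of Fosb in replicate 1 and that of Jun in replicate 2. Promoters held 2.40% of all unshared peaks of replicate 1 and 10.2% of those of replicate 2.

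The sequence under the summits was searched for 12 consensus strings on both strands, in windows of 100 bases either side. The AP-1 string TGAGTCA, to which FOS and JUN dimers bind, was in 0 of the 24 windows near the AP-1 factor genes and in 8.91% of all shared windows. Allowing any base at its centre (TGANTCA), a form added after the windows were read, also gave 0 of 24, against 12.3%. The cyclic AMP response element TGACGTCA, bound by ATF and CREB dimers, was in 0, against 0.401%. These letters are therefore not within these windows, which says nothing on whether the factors were bound there. In windows of 200 bases either side, 2 of the 24 (8.33%) held TGAGTCA, against 13.6% of all shared regions.

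Among the other strings, TTGCNNAA (C/EBP) was in 11 of 24 windows (45.8%), against 40.9% of all shared windows. TGTGGT (RUNX) was also in 11 (45.8%), against 26.4%, at regions of Fos, Fosb, Fosl1, Fosl2, Batf, Batf3 and Atf3 alike. The E-box CACGTG was in 3 (12.5%), against 3.65%, upstream of Fos, Batf and Atf3. GTCTGG, a SMAD string, was in 3 (12.5%), against 11.2%, and at the Batf3 region 25.4 kb downstream it stood at the mean summit itself. AGGTCA, a nuclear receptor string, was in 1 (4.17%), against 15.4%. None of the 24 held GAGGAAGT (PU.1, in 877 of all 10964), CAGGAAGT (ETS, 5.62%), TTCNNNGAA (STAT, 8.06%), GTCTAGAC (the SMAD palindrome, 0.465%) or a CArG box, the serum response factor site (1.34%). With 24 windows, 1 window is 4.17%, so the shares of the rarer strings are coarse. Of the 24 windows, 4 (16.7%) held none of the 12 strings, against 21.1%.

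**Figure D4:**
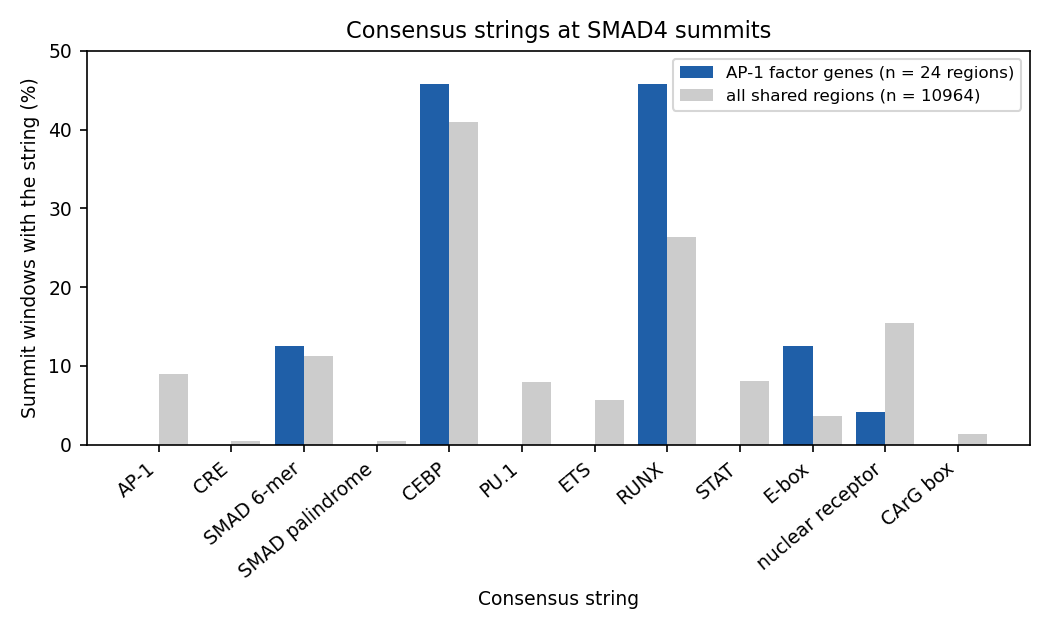
Percentage of windows of 100 bases either side of the summit (y axis) that held each of 12 strings (x axis), for the 24 shared regions near the AP-1 factor genes (blue) and all 10964 shared regions (grey). The AP-1 string was in 0% of the blue and 8.91% of the grey windows, and the RUNX string in 45.8% and 26.4%.

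The joined string TGATGCAA, bound by dimers of C/EBP with ATF proteins, was searched only after it had been seen in the windows. It was in 5 of the 24 (20.8%), against 4.62% of all shared windows, and because it was picked from these letters the difference is a description. All 5 were at Batf, Batf3 and Atf3, and none was at a FOS family gene. In the Batf window it lay 14 bases before the mean summit, and in the Atf3 promoter it is the only capitalised stretch. The first 4 letters of its reverse complement, TTGCATCA, are those of the C/EBP string TTGCNNAA, but no 8 letters can match both.

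Promoter sequences, from 250 bases before to 50 after the TSS, were matched for 9 of the 10 genes, all but Fosl1. None of the 9 held TGAGTCA, against 4.74% of 20418 promoters, and none held TGACGTCA, against 2.31%. Jund held the C/EBP string (10.1% of all promoters), Batf the RUNX string (14.4%), and Batf3 the STAT string and the E-box (7.79% and 8.05%).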

How the data were processed

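HT-ChIPmentation libraries of SMAD4 from mouse AMs (2) and input (2) were sequenced as pairs. After trimming with Cutadapt, the authors aligned reads to mm10 with Bowtie2, marked duplicates with PICARD, filtered with samtools and called peaks in each library with MACS3 at a q limit of 0.05 against input. For each peak the authors deposited a fold ratio, a −log10 p-value, a −log10 q-value and a score (10 times the −log10 q-value, not used). The inputs enter only through the control level.

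Fragments under each summit and the control level were solved from the deposited fold and p-value, which they returned to within 0.0005 on the −log10 scale. A depth in reads is not given by peak lists. Genes came from curated RefSeq models (45657 transcripts, 26089 genes) on 20 chromosomes of GRCm38, the assembly that mm10 names, and coordinates are 1-based. The region summit is the mean of the strongest summits of both lists. Features were taken in the order promoter (1 kb before to 100 bp after a TSS), transcription end, exon, intron and intergenic, and the nearest gene was that with the closest TSS.

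With no second condition no test was made. Scripts (Python 3.11.15, numpy 2.4.6, scipy 1.17.1, pysam 0.24.0, matplotlib 3.10.9) were tested on simulated data. The members and lists were chosen with earlier results of these data known. All 10 genes are named. Of related gene lists, up to 4 genes with a shared region and the highest smaller fold are named, and the gene closest to a member region where it was another. Sequences are those of the 5 regions of highest smaller fold, plus 3 chosen later for TGATGCAA. Some of the genes looked up are not reported here. Replicate numbers follow accession order and pair nothing.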

Additional observations from a re-analysis of the deposited data

How the results depend on the processing

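A reach of 100 kb in place of 50 kb raised the peaks near the AP-1 factor genes to 56 in replicate 1 and 76 in replicate 2, the shared regions to 46 and those with TGAGTCA to 4. Windows of 200 bases either side gave 2 with TGAGTCA. Taking either list alone, the number of regions was 33 without replicate 2 and 40 without replicate 1, those closest to a member 26 and 29, and those with TGAGTCA 2 and 1. Other settings were q of 0.01, fold of 5, summits within 100 bp, 50% reciprocal overlap, a reach of 25 kb and predicted transcripts. The totals over the 10 genes then stayed within 1.5 times their main values. That held for peaks, shared regions, regions closest to a member and genes with a shared region. At fold of 5, shared regions fell from 24 to 16 and peaks of replicate 1 from 33 to 22. With predicted transcripts, regions closest to a member fell from 19 to 13. Genes with 3 or more shared regions, a count added after the data had been seen, numbered 6, against 10.3% of protein-coding genes. They fell to 3 at fold of 5 (7.17% of protein-coding genes) and to 5 with 50% overlap (7.73%). At 25 kb (5.85%) or with summits within 100 bp (7.50%) they numbered 4. They were 6 at 100 kb (21.4%), 6 without replicate 2 (14.1%) and 7 without replicate 1 (20.2%). Single genes moved more. At fold of 5, Fos had 3 regions, Fosb 2 and Batf3 2. With summits within 100 bp Batf3 had 2, and at 25 kb Fosb had 3 and Batf3 2. Genes with a shared region numbered 6 at 25 kb, where Batf lost all 3, and 8 at 100 kb, where Junb gained 1. Jun and Jund had 0 wherever both lists were required. A single-list count needs no second call, so all 10 genes were reached by replicate 2 and 8 by replicate 1. All JUN family peaks were unshared and rested on 9 to 18 fragments. The lowest summits listed held 9 in replicate 1 and 7 in replicate 2, and the list medians were 17.0 and 14.0. In replicate 2, the Junb peak with 18 fragments and the Jund peak with 16 were above that median. No paired analysis was possible because the result comes from no test and replicate numbers pair nothing.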

Other observations

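Genes that work with AP-1 proteins were looked up in the same way, as counts beside the 39.1% of protein-coding genes with a shared region in reach. Of 10 other immediate early genes, all but Egr1 had one, and Egr1 had 2 unshared peaks of replicate 2. The highest regions were at Egr3 (folds 17.5 and 20.3), Dusp1, which encodes a phosphatase of MAP kinases (12.0 and 17.1), Zfp36, which encodes an mRNA-destabilising protein (12.0 and 22.1), and Ier5 (9.42 and 13.5, closest to Gm9530). Of 11 other CREB/ATF and JDP2 genes, 7 had one. Creb5 carried 14, the highest at folds of 8.77 and 20.8 in an intron 82890 bp from its TSS. The whole gene body is counted, so a long gene such as Creb5 can hold more regions than the short AP-1 factor genes. Jdp2, which lies between Fos and Batf, had 3, the highest at 8.77 and 10.4. Atf4 had 1 region at 7.80 and 12.6.

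Of 7 genes for kinases that act on AP-1 proteins, 4 had a shared region. Mapk14, which encodes p38α, had 7, the highest at folds of 17.5 and 21.2. The JNK genes Mapk8 and Mapk9 had none, though Mapk8 had 2 unshared peaks of replicate 1. The JNK genes, Egr1 and Irf4 are named after their values were seen. Of 7 factors that act at immediate early promoters, 3 had one, with Mef2a highest at 8.45 and 15.3. Irf8, whose product pairs with BATF proteins, had 3, the highest in its own intron at chr8:120740724-120741766 with folds of 23.1 and 41.5, close to the 20.5 and 41.1 of the Batf region. Irf4 had no shared region and 1 peak of replicate 2.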
